A study of Mus musculus with 24 samples.

Results

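Ribosome biogenesis genes were taken as the genes that the annotation deposited with the table places in the KEGG pathway of ribosome biogenesis in eukaryotes, with a mean above 5 normalised counts over all libraries. There were 72 such genes among 17270 listed genes, and all 72 with the term passed the mean. They were selected on the term and on this mean, which holds no contrast, but the pathway was taken up with its rise at 24 h already seen, so that the counts at 24 h describe it and are no independent test. The lowest mean was 8.29 normalised counts (Nxf2), just inside the limit, and no gene with the term lay outside it. Brain microvessels were isolated from male C57BL/6J mice of 10 to 12 weeks after transient middle cerebral artery occlusion (tMCAO, 60 min, termed stroke) or after sham surgery, in which the filament was withdrawn at once. The ipsilateral and the contralateral hemisphere were sampled 24 h or 7 days post-surgery, which gave 8 groups of 3 libraries, 24 in all. Mice received buprenorphine around surgery, and feeding and fluids followed the condition of each animal. Each library pooled the vessels of 3 hemispheres of one kind, so that single animals were not resolved, and the size of the infarct was not known for the pooled brains. The study had removed samples that it judged to be outliers before these 3 libraries per group remained.

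Ribosomes are built mainly in the nucleolus, where RNA polymerase I transcribes a long precursor that is folded, modified and cut into the ribosomal RNAs. Small nucleolar ribonucleoproteins (snoRNPs) guide the modification, with box C/D particles methylating ribose and box H/ACA particles making pseudouridine. The small subunit processome, built from the UTP-A, UTP-B, UTP-C and MPP10 complexes, packages the start of the precursor, RNase MRP and other nucleases cut it, and GTPases and export factors bring the subunits to the cytoplasm. Cells that enlarge, enter the cell cycle or raise protein synthesis are known to raise these genes together, often through the transcription factor Myc.

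The libraries held 15924780 to 18787932 normalised counts, which corresponded to an estimated 13691864 to 20032821 reads on genes. The 10 endothelial marker genes summed to 253838 to 365071 normalised counts in all libraries, and none of them was at 0 throughout a group. Neuronal, oligodendrocyte and choroid plexus markers were also present, so that the vessels were not the only source of RNA. No ribosome biogenesis gene was at 0 in any library, and only 5 had a mean below 50 (Nxf2, Rpp25, Fbll1, Rexo5 and Rpp40). Normalised counts were not corrected for gene length, so that levels are compared here between libraries and not between genes.

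Ribosome biogenesis genes rose in the ipsilateral hemispheres 24 h post-stroke and none of them was higher than in sham hemispheres at 7 days. At 24 h, 33 of the 72 genes were higher and 1 was lower than in sham ipsilateral hemispheres, against a background of 10.0% higher and 8.23% lower among the 15982 tested genes. A gene was called when limma's adjusted p was under 0.05 and its log2 fold change passed 0.585 in either direction. The median log2 fold change of the 72 genes was 0.56, and that of all tested genes was -0.02. In these bulk samples, fewer or more cells of a type and less or more RNA per cell cannot be told apart. The change was positive in 64 of the 72 genes at 24 h, compared with 48.2% of all tested genes, and 57 of the 72 had an unadjusted p under 0.05 in either direction, compared with 42.1%. By the adjusted p alone, whatever the size of the change, 51 of the 72 were higher, against 17.4% of all genes. All 3 stroke libraries lay above all 3 sham libraries in 56 of the 72 genes, against 25.0% of all genes.

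The same rise was seen in the share of all normalised counts that fell on the 72 genes. This share was 0.348%, 0.342% and 0.321% in the 3 ipsilateral libraries 24 h post-stroke. In the other 21 libraries it lay between 0.227% and 0.272%, without overlap. On the log2 scale, the median deviation of the 72 genes from the mean of the 18 libraries that were not stroke ipsilateral was 0.57, 0.57 and 0.36 in these 3 libraries and -0.09 to 0.15 in all others. The third stroke library stood lower than the other two, with 17 genes deviating by more than the limit of 0.585, compared with 34 and 34.

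**Figure D1:**
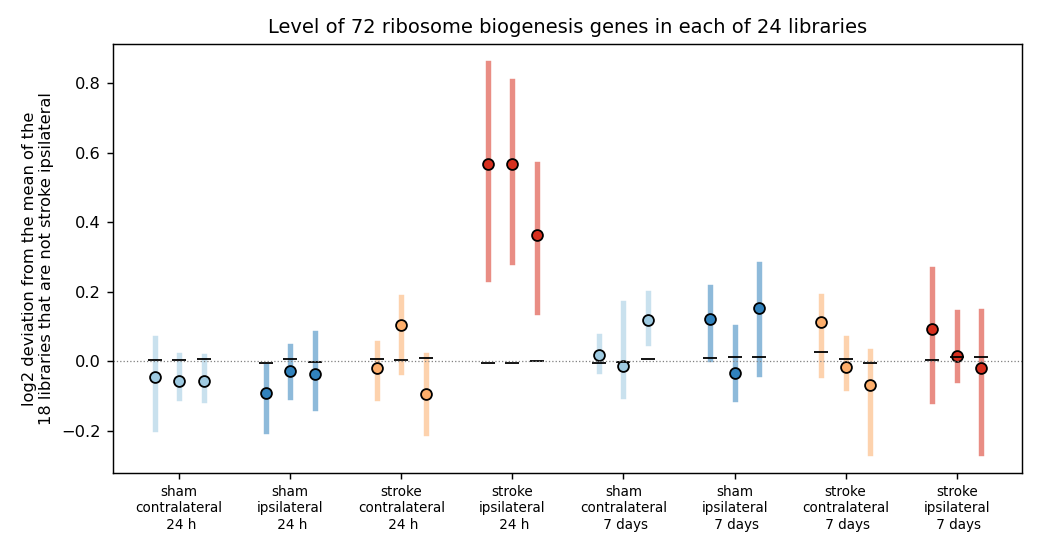
Each point is the median over 72 ribosome biogenesis genes of the log2 deviation from the mean of the 18 libraries that were not stroke ipsilateral, for 1 library; the vertical bar spans the quartiles of the genes and the short dash is the median of all tested genes. The 3 ipsilateral libraries 24 h post-stroke lie at 0.36 to 0.57, above the other 21 libraries, and the 7-day stroke libraries lie within the range of the controls.

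The core proteins of the box C/D snoRNPs were among the genes with the largest increase. Fbl, the methyltransferase of these particles, had 642, 592 and 431 normalised counts in the 24 h stroke ipsilateral libraries and 135, 193 and 203 in the sham ipsilateral ones. All stroke values lay above all sham values, a log2 fold change of 1.65 (SE 0.17, limma adjusted p = 1.4e-06) or 3.13-fold. Nop58, which binds the guide RNA together with Nop56, had 1576, 1393 and 1215 normalised counts after stroke and 509, 568 and 658 after sham surgery. Its log2 fold change was 1.27 (SE 0.16, limma adjusted p = 1.31e-05). Nop56 rose by 0.90 (SE 0.15). Snu13, which binds the kink-turn of the guide RNA, had a log2 fold change of 0.34 (SE 0.14) and was not called. Fbll1, a relative of Fbl with few counts, went the other way, with 11, 19 and 10 normalised counts after stroke and 25, 43 and 30 after sham surgery (log2 fold change -1.25, SE 0.45, limma adjusted p = 0.0397). This call was lost in 5 of 6 fits that each left out 1 library, with log2 fold changes between -1.42 and -1.04 in those 5.

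Of the 4 box H/ACA proteins, 3 rose, beside 10.0% of all tested genes. Nhp2, an RNA-binding protein among them, had the largest increase of all 72 genes. It had 1067, 1022 and 777 normalised counts 24 h post-stroke and 261, 314 and 286 in sham ipsilateral hemispheres, without overlap. Its log2 fold change was 1.72 (SE 0.13, limma adjusted p = 7.5e-08), which is 3.30-fold. Gar1 rose by 1.10 (SE 0.13), from 211, 234 and 268 to 556, 504 and 467 normalised counts. Dkc1, the pseudouridine synthase that is mutated in dyskeratosis congenita, rose by 0.85 (SE 0.13), with 816, 686 and 691 normalised counts against 432, 425 and 357. Nop10 had a log2 fold change of 0.43 (SE 0.16) and stayed below the limit.

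The complexes of the small subunit processome differed in their counts of higher genes, beside 10.0% of all tested genes at 24 h. In UTP-A, which binds the precursor first and is known to be linked to its transcription, 3 of 5 genes were higher. Heatr1 led them with 817, 765 and 660 normalised counts after stroke and 345, 367 and 390 after sham surgery (log2 fold change 1.02, SE 0.18), and Utp4 (0.66) and Wdr75 (0.63) followed. In UTP-B, 4 of 6 genes were higher, namely Tbl3 (1.01), Pwp2 (0.97), Utp18 (0.80) and Wdr36 (0.64). Of the exonic bases of Tbl3, 37.3% overlapped Noxo1 on the opposite strand, and whether the counting used the strand was not stated. Pwp2 had 745, 647 and 548 normalised counts after stroke and 292, 351 and 343 after sham surgery, while Utp6 had the smallest change of this complex (0.21, SE 0.11, not called).

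Among UTP-C and casein kinase 2, a kinase with many other substrates, 1 of 5 genes was higher (Rrp7a, 0.59), and the catalytic subunit Csnk2a1 had a log2 fold change of 0.04 (SE 0.09). In the MPP10 complex, 1 of 3 was higher (Mphosph10, 0.59), while Imp3 was not called (0.15, SE 0.16). Beside 10.0% of all tested genes, 1 higher gene in each of these short lists is not read as a rise of the complex. Rrp7a and Mphosph10 lay close to the limit of 0.585 and were not called after median centring of the libraries, nor were Wdr36, Wdr75, Gtpbp4 and Nxt1. Rrp7a shared 12.5% of its exonic bases with Serhl on the opposite strand.

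Among 12 further assembly factors of the small subunit, 7 were higher, beside 10.0% of all tested genes. Nat10, which acetylates ribosomal RNA, rose by 1.04 (SE 0.16), from 248, 317 and 248 to 632, 571 and 476 normalised counts. Tcof1, a cofactor of RNA polymerase I that is mutated in Treacher Collins syndrome, rose by 0.74 (SE 0.18), with 761, 738 and 662 normalised counts against 458, 445 and 388. Nob1, the endonuclease that makes the last cut of the small subunit RNA, rose by 0.72 (SE 0.13), with 634, 537 and 493 against 325, 354 and 328. None of these 3 genes overlapped between the groups. The other higher genes were Ak6 (1.11), Emg1 (0.74), Utp14a (0.72) and Rcl1 (0.69). Utp14a shared 11.5% of its exonic bases with a gene on the opposite strand. Ak6 shared 56.5% of its exonic bases with Taf9 on the same strand, so that reads from these genes could not be fully separated.

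Of the 9 subunits of RNase MRP and RNase P, which cut ribosomal and transfer RNA precursors, 4 were higher (10.0% of all tested genes). Pop1, the large scaffold subunit, had 299, 266 and 217 normalised counts 24 h post-stroke and 115, 105 and 117 in sham hemispheres (log2 fold change 1.20, SE 0.18). Rpp38 had 176, 168 and 151 against 64, 63 and 58 (1.40, SE 0.26). Rpp40 had 97, 106 and 80 against 29, 43 and 32 (1.43, SE 0.25). The stroke and sham libraries did not overlap in any of the 3. Pop7 rose by 1.0 (SE 0.13), and Rpp25, a subunit with few counts, had a log2 fold change of -0.98 (SE 0.56, not called).

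Of 6 nucleases, most of which act on many RNAs besides the ribosomal precursor, 1 was higher, beside 10.0% of all tested genes. The higher gene was Rexo2, an oligoribonuclease, with 1632, 1736 and 1416 normalised counts against 926, 936 and 958 (log2 fold change 0.76, SE 0.09). Drosha, better known for cutting microRNA precursors, had a log2 fold change of 0.05 (95% confidence interval -0.24 to 0.34). Xrn1, the cytoplasmic exonuclease, had the lowest value of this group (-0.37, SE 0.13), within the limit.

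Of 11 large subunit factors, 4 were higher, beside 10.0% of all tested genes. Gnl3, the nucleolar GTPase nucleostemin, had 737, 667 and 584 normalised counts after stroke and 286, 300 and 372 after sham surgery (log2 fold change 1.05, SE 0.19). Eif6, which keeps the unfinished large subunit from joining the small one, rose by 0.93 (SE 0.15), with 2620, 2473 and 1906 normalised counts against 1076, 1216 and 1375. Spata5 (0.66) and Gtpbp4 (0.62) were also higher. Sbds, which helps to release Eif6 and is mutated in Shwachman-Diamond syndrome, had 2510, 2416 and 2282 normalised counts against 2470, 2321 and 2806, with overlapping groups and a log2 fold change of -0.07 (95% confidence interval -0.36 to 0.22).

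Among the 6 export genes, the GTPase Ran and Nxt1, a partner of mRNA export receptors, were higher, beside 10.0% of all tested genes. Ran had 3374, 3733 and 2831 normalised counts 24 h post-stroke and 1444, 1532 and 1634 in sham hemispheres, a log2 fold change of 1.10 (SE 0.12, limma adjusted p = 4.03e-06). Nxt1 rose by 0.60 (SE 0.14), close to the limit. Xpo1, the exportin that carries both subunits, had a log2 fold change of 0.03 (95% confidence interval -0.42 to 0.49), and its libraries overlapped. Nmd3, the adaptor between the large subunit and Xpo1, had a log2 fold change of 0.52 (SE 0.13), below the limit.

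**Figure D2:**
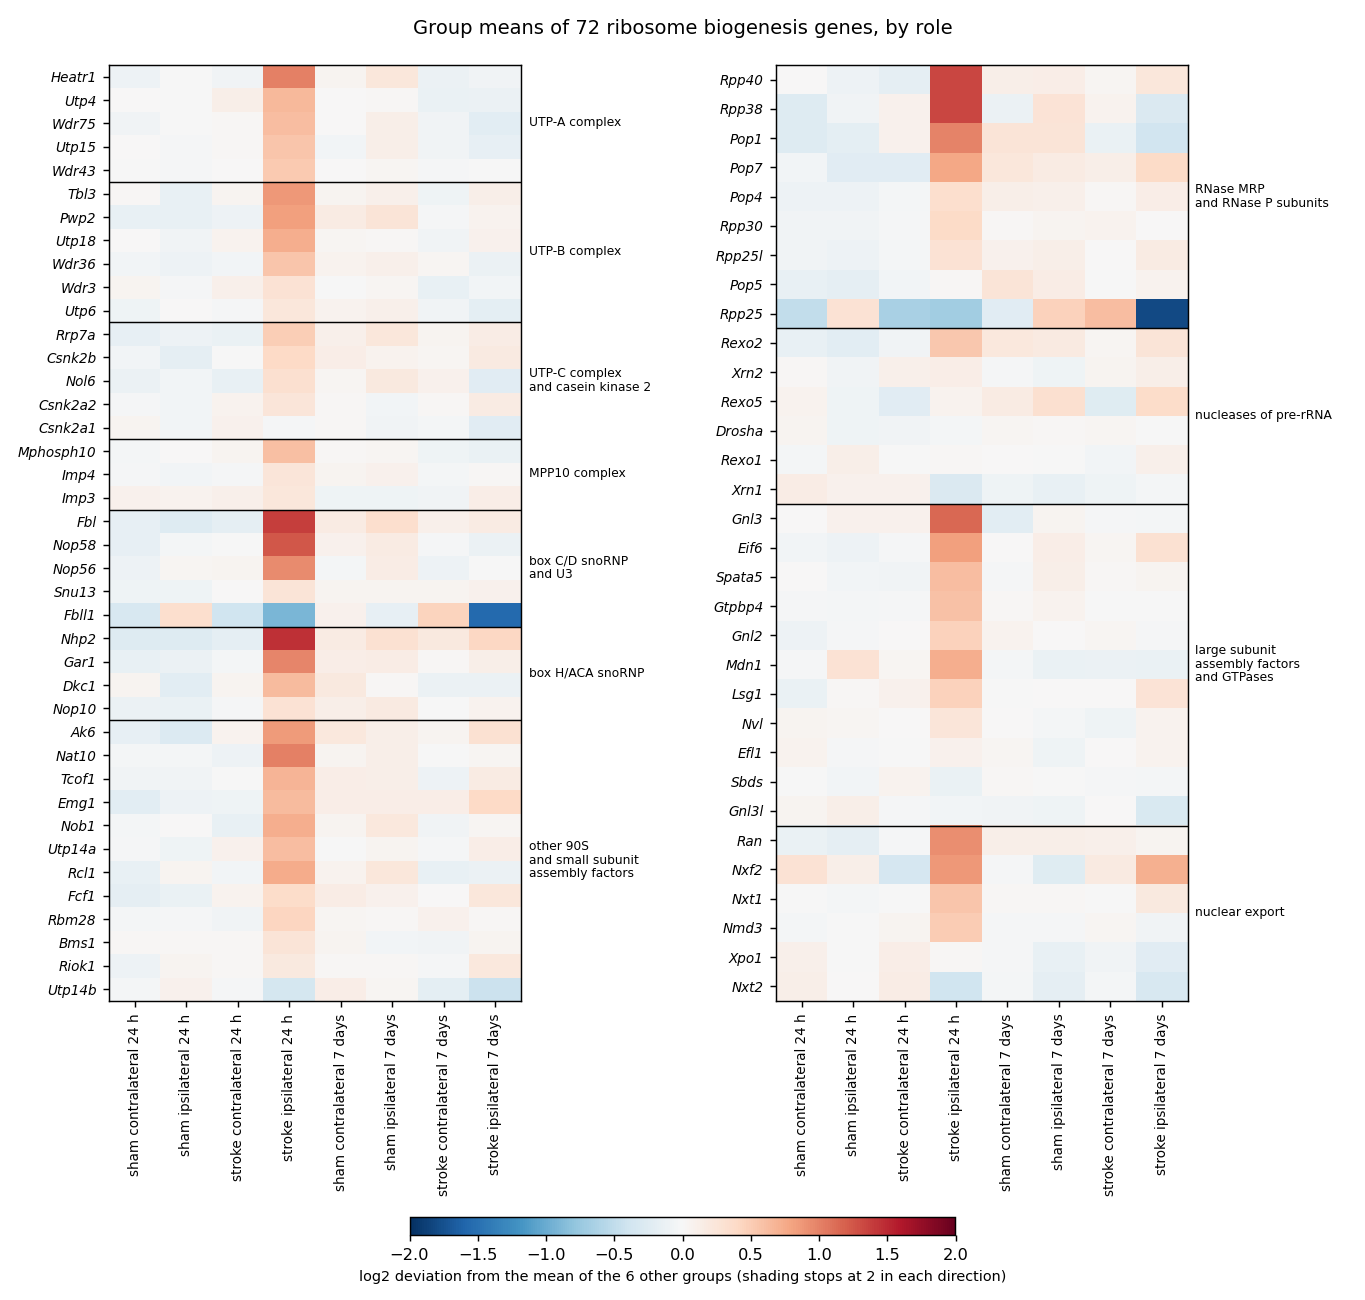
Group means of the 72 genes on the log2 scale, shown as deviation from the mean of the 6 groups that were not stroke ipsilateral, with the genes in rows ordered by role and the 8 groups in columns. Red is higher and blue is lower; the column of the ipsilateral hemispheres 24 h post-stroke is red for most genes, and Rpp25 and Fbll1 are the darkest blue cells at 7 days.

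Members of related pairs did not always change together. Nop56 and Nop58 both rose. In contrast, Nhp2 rose by 1.72 and Snu13, which belongs to the same family of RNA-binding proteins, had a log2 fold change of 0.34. Gnl3 rose by 1.05, while Gnl3l, a related GTPase, had 850, 898 and 949 normalised counts after stroke and 1031, 979 and 1001 after sham surgery (log2 fold change -0.16). Utp14a rose by 0.72, and Utp14b had a log2 fold change of -0.44 (SE 0.17, not called) with 139, 148 and 144 normalised counts against 219, 180 and 188. Nxt1 rose by 0.60, and Nxt2 had a log2 fold change of -0.40 (SE 0.14) that did not pass the limit. The differences between the members of a pair were not tested.

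**Figure D3:**
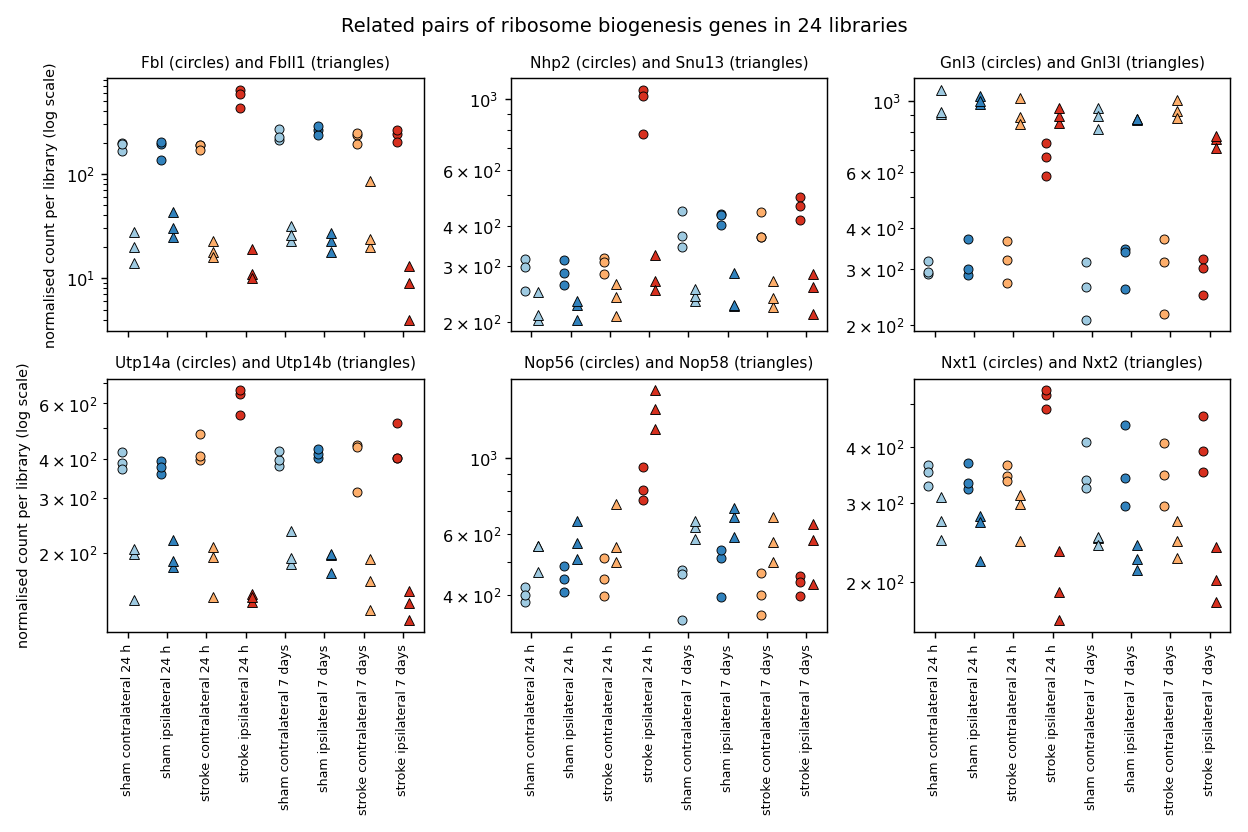
Normalised counts of 6 related pairs in the 24 libraries on a log axis, with circles for the first and triangles for the second gene of a pair and 3 points per group, coloured by surgery and hemisphere. Fbl, Nhp2, Gnl3, Utp14a, Nop56, Nop58 and Nxt1 are highest in the ipsilateral hemispheres 24 h post-stroke, which is not so for Fbll1, Gnl3l, Utp14b and Nxt2.

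Length and position, which the pathway term did not use, were compared between the genes called higher and the other members without a test. The median exonic length of the called genes was 3887 bases, compared with 4854 bases for the other 39 genes. On the X chromosome lay 2 of the 33 and 3 of the 39. The called genes lay on 17 chromosomes and the others on 18.

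Promoter sequences from RefSeq (GRCm38.p6) were found for 60 of the 72 genes, and the 250 bases upstream of the start site were used. Both strands of these 250 bases were searched for CACGTG (the E-box that Myc and related factors bind), CCGGAAG (an ETS family site), AAGATGG (a YY1 site) and GGGCGG (a GC box). Matches of different motifs shared bases in 1 of the 67 promoters of these genes. The ETS site was present in 18 of the 60 genes, compared with 14.0% of the tested genes with a promoter, and the E-box in 13.3% compared with 9.50%. The GC box was found in 61.7% compared with 62.1%, and the YY1 site in 3.33% compared with 4.92%. Between the genes called higher at 24 h and the other members, the share with an E-box was 14.8% and 12.1%, and that with an ETS site was 33.3% and 27.3%. A match describes the letters only and is no evidence of binding. The stretches that follow show the E-box in the 4 genes called higher that had one, and the ETS site in the 3 genes with the largest increase that had one, with the motif, on either strand, in capitals.

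Ran (chr5:129020027-129020054, plus strand, E-box): ctcggccggccCACGTGacccgccgccc
Rexo2 (chr9:48480739-48480804, minus strand, E-box): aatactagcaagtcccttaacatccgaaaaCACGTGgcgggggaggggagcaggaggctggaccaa
Rrp7a (chr15:83122974-83123039, minus strand, E-box): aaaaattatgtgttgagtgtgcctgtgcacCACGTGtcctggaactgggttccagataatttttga
Utp18 (chr11:93885767-93885816, minus strand, E-box): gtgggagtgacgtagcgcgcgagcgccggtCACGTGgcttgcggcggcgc
Nhp2 (chr11:51619739-51619767, plus strand, ETS site): cacttgaaaacCCGGAAGtgatgtcggag
Gar1 (chr3:129831403-129831469, minus strand, ETS site): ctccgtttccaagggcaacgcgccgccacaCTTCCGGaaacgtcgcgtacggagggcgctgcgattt
Heatr1 (chr13:12395348-12395374, plus strand, ETS site): gtagtgagaagCCGGAAGttcctatga

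The ETS sites of Heatr1 and Nhp2 ended 9 and 16 bases before the RefSeq start site and that of Gar1 36 bases before it. The deposited annotation starts Nhp2 at base 51619735, so that the printed stretch lies within the gene there. It starts Heatr1 at base 12395371, which only the last bases of that stretch pass. The E-box of Utp18 lay 14 bases from the start, and those of Ran, Rexo2 and Rrp7a lay 112, 157 and 202 bases from it.

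At 7 days post-stroke, none of the 72 genes was higher than in sham ipsilateral hemispheres and 3 were lower, against a background of 3.27% higher and 9.95% lower. The median log2 fold change was -0.04, with 31 genes positive (53.1% of all genes). By limma, 14 of the 72 had an unadjusted p under 0.05 in either direction (29.3% of all genes). The 3 lower genes were Rpp25, Fbll1 and Pop1. Rpp25 had 2, 1 and 4 normalised counts after stroke and 12, 16 and 14 after sham surgery (log2 fold change -2.26, SE 0.56). Fbll1 had 4, 9 and 13 against 18, 23 and 27 (-1.40, SE 0.45). Both genes are therefore measured on few reads. Pop1, which had risen at 24 h, had 102, 129 and 74 normalised counts against 145, 151 and 169 (-0.64, SE 0.18, limma adjusted p = 0.021). Without the third sham ipsilateral library of 7 days, only 1 of the 3 calls was left (Rpp25).

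The ipsilateral stroke libraries of the time points were also compared directly. From 24 h to 7 days post-stroke, 26 of the 72 genes were lower and 0 were higher in the ipsilateral hemispheres, against 8.44% lower and 3.72% higher among all genes. All 3 libraries of 7 days lay below all 3 of 24 h in 43 of the 72 genes (19.9% of all genes), and 47 had an unadjusted limma p under 0.05 in either direction (33.0%). Nop58 fell by 1.35 (SE 0.16), from 1576, 1393 and 1215 to 643, 576 and 429 normalised counts. Fbl fell by 1.22 (SE 0.17), from 642, 592 and 431 to 242, 262 and 204. Nhp2 fell by 1.05 (SE 0.13), from 1067, 1022 and 777 to 492, 461 and 417. For all 3 genes the groups did not overlap. At 7 days, the values of Nhp2 overlapped those of sham hemispheres of the same time (437, 403 and 434), which were themselves above those of sham hemispheres at 24 h. The comparison of the time points used the same 24 h stroke libraries as the comparison with sham surgery. Their rise was already seen when the pathway was taken up, so that the counts of this comparison are no independent test.

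To take account of each time's own sham hemispheres, the stroke effect at 7 days was compared with that at 24 h in an interaction term. This difference was negative and called for 33 of the 72 genes and positive for 0, against 5.68% negative and 2.43% positive among all genes. At an unadjusted limma p under 0.05 in either direction there were 47 of the 72 genes (26.0% of all genes), and the median difference was -0.56 on the log2 scale. The interaction holds the 24 h effect that was already seen when the pathway was taken up, so that its counts are no independent test. Sham-operated mice showed a small shift upwards from 24 h to 7 days, with a median log2 fold change of the 72 genes of 0.14 ipsilaterally and 0.09 contralaterally. By limma, 0 of the 72 genes were called higher or lower in either of these sham comparisons, for which the background was 0.300% higher and 0.175% lower ipsilaterally and 0.232% and 0.100% contralaterally. At an unadjusted p under 0.05 there were 14 and 11 of the 72 genes, against 14.1% and 10.8% of all genes.

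**Figure D4:**
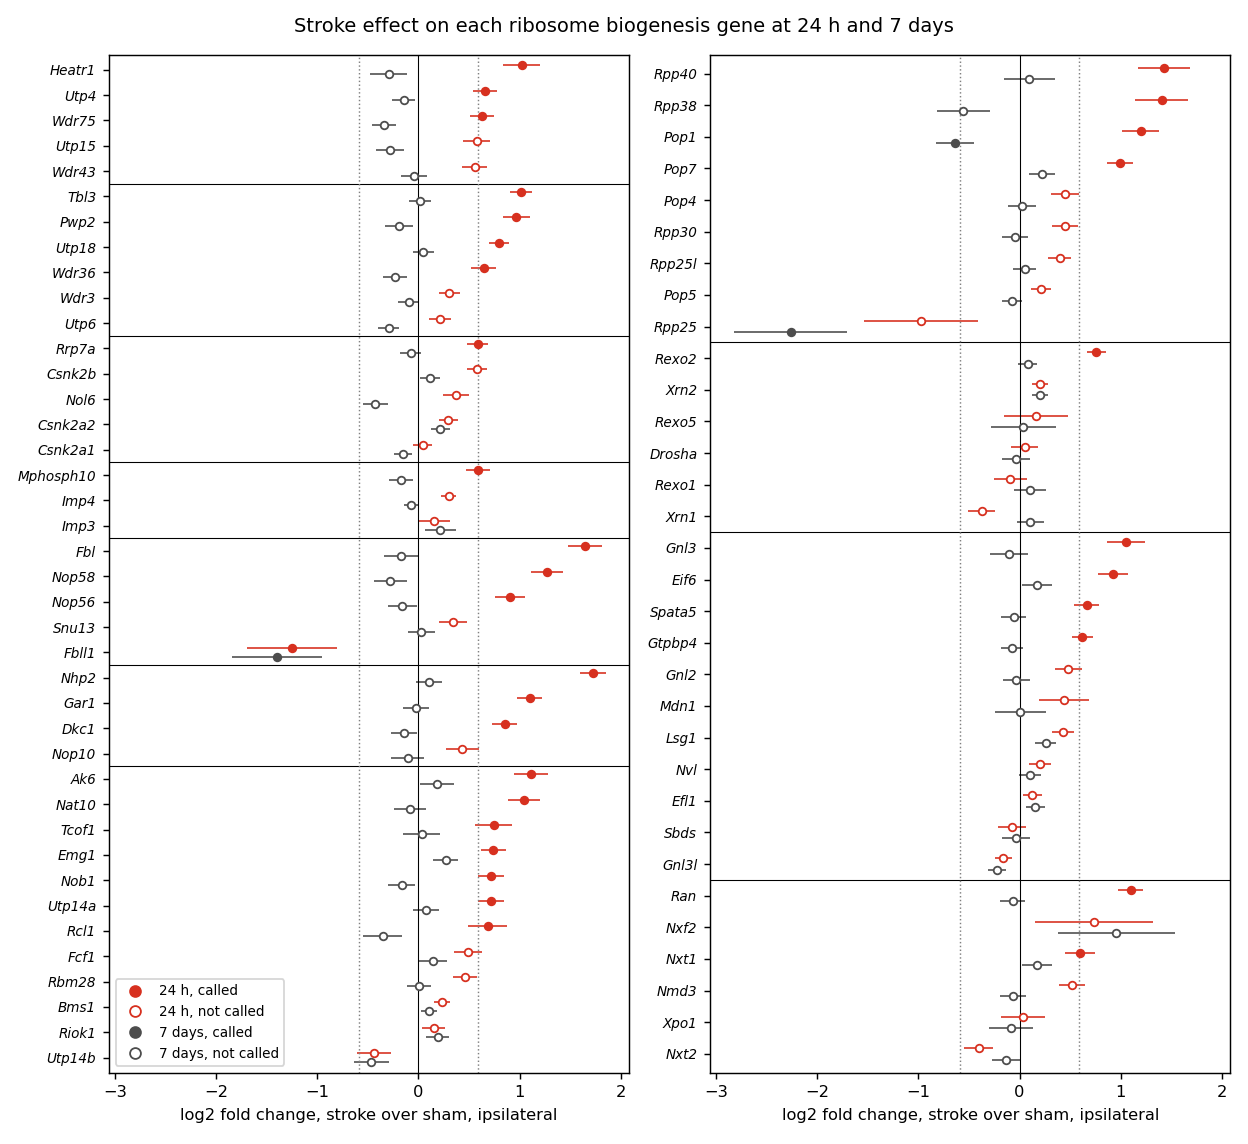
Log2 fold change of stroke over sham ipsilateral hemispheres for each of the 72 genes at 24 h (red) and 7 days (grey), with horizontal bars for the standard error, filled points for called genes and dotted lines at the limit of 0.585. At 24 h, 33 genes are called to the right and 1 to the left; at 7 days, 3 genes are called, all to the left.

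The contralateral hemispheres gave a reference from mice with the same surgery. At 24 h post-stroke, 28 of the 72 genes were higher and 0 were lower ipsilaterally than contralaterally, against 8.52% and 5.14% of all genes, with a median log2 fold change of 0.52. All ipsilateral libraries lay above all contralateral ones in 49 of the 72 genes (21.7% of all genes), and 52 had an unadjusted limma p under 0.05 (37.2%). This comparison shared its stroke ipsilateral libraries with the comparison with sham surgery. Nhp2 had 318, 310 and 283 normalised counts contralaterally (log2 fold change 1.64, SE 0.13), Fbl had 190, 190 and 171 (1.57, SE 0.17) and Ran had 1724, 1846 and 1561 (0.95, SE 0.12). All 3 were thus below each of the ipsilateral values at 24 h. Fbll1 was not called here (-0.52, SE 0.45). At 7 days, 0 genes were higher and 2 (Rpp25 and Fbll1) were lower ipsilaterally, against 3.03% and 9.98% of all genes, and 7 had an unadjusted limma p under 0.05 (26.9%).

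No ribosome biogenesis gene was called between the control groups. Between the hemispheres of sham-operated mice, 0 of the 72 genes and 0 of all genes were called at 24 h and at 7 days by limma, and 1 and 0 of the 72 had an unadjusted p under 0.05 (2.30% and 2.25% of all genes). Between contralateral hemispheres after stroke and sham surgery, 0 of the 72 were called at 24 h and at 7 days, against a background of 0% at 24 h and 0.0250% higher and 0.00626% lower at 7 days, and 0 and 3 had an unadjusted p under 0.05 (2.53% and 10.3%). Contralateral hemispheres 7 days and 24 h post-stroke differed in 0 of the 72 genes (0% of all genes), with 5 at an unadjusted limma p under 0.05 (16.5%).

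Across all 24 libraries many of the genes varied together. These libraries hold the 24 h rise that was already seen when the pathway was taken up, so that this is no independent support. The correlation of a gene with the mean of the other members had a median of 0.77 and was above 0.8 for 34 of the 72 genes, compared with 3.40% of the other tested genes. Nop58 was most like the other members (r = 0.96), and Nxt2 was least like them (r = -0.63). Within the 18 libraries that were not stroke ipsilateral the median was 0.54, with 3 of the 72 genes above 0.8 (0.38% of the other tested genes). Over deviations from the group means the median was 0.50, with 1 gene above 0.8 (0.58%). The correlation was below 0 for 8 genes over all 24 libraries, 12 within the 18 and 10 over the deviations. These correlations are descriptive, since the points share libraries and their scaling.

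Many genes of the same process that the pathway term does not hold were higher as well. Of 61 further assembly factors, 33 were higher and 0 lower at 24 h against sham surgery, beside 10.0% and 8.23% of all genes. Each of the 61 changed in the positive direction, compared with 48.2% of all tested genes. Their median log2 fold change was 0.60, and that of all tested genes was -0.02. The largest increase was that of Rrp12, an export factor of both subunits, with 369, 328 and 291 normalised counts against 82, 125 and 133 (log2 fold change 1.55, SE 0.22). Ddx52 had the smallest value (0.03, SE 0.10). The abundant nucleolar proteins Npm1 (0.87, SE 0.08) and Ncl (0.63, SE 0.09), named after their values were seen, were among the higher genes. At 7 days, 0 of the 61 were called by limma, beside 3.27% higher and 9.95% lower among all genes. Of the 61, 5 had an unadjusted limma p under 0.05 (29.3% of all genes), and the median was -0.09. In the interaction, 32 of the 61 were called lower at 7 days (5.68% of all genes).

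Of 15 genes of RNA polymerase I and its factors, 5 were higher at 24 h and 0 lower (10.0% and 8.23% of all genes). The 5 higher genes were all subunits of the polymerase. Polr1e had 357, 285 and 248 normalised counts after stroke and 82, 89 and 85 after sham surgery (log2 fold change 1.77, SE 0.21), followed by Cd3eap (0.83), Polr1b (0.76), Znrd1 (0.63) and Polr1a (0.59), the last 4 named after their values were seen. Taf1a, a subunit of the factor that selects the promoter, had the lowest value (-0.28, SE 0.16, not called). At 7 days, Taf1d was higher than in sham hemispheres (0.64, SE 0.21), with 82, 82 and 98 normalised counts against 59, 53 and 55. The sham ipsilateral libraries of 24 h had 92, 99 and 90. Against the contralateral hemisphere at 7 days, Taf1d was not called (0.21, SE 0.21). No other gene of the list was called against sham surgery at 7 days, beside 3.27% higher and 9.95% lower among all genes.

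Myc itself varied widely between libraries. It had 1087, 1152 and 721 normalised counts in ipsilateral hemispheres 24 h post-stroke, 163, 210 and 278 in sham ipsilateral hemispheres and 106, 313 and 85 in contralateral ones. The stroke ipsilateral values lay above all of these. The log2 fold change against sham surgery was 2.18 (SE 0.87, limma adjusted p = 0.0617), which was not called, and that against the contralateral hemisphere was 2.76 (SE 0.87, limma adjusted p = 0.0247), which was. At 7 days it had 374, 201 and 89 normalised counts after stroke and 208, 31 and 452 after sham surgery. Among the 11 tested genes of the list of Myc and partners, only Odc1 was called higher at 24 h (2.10, SE 0.44). Odc1 is the ornithine decarboxylase that Myc is known to induce. Only Mycl (-1.14, SE 0.29) and Mxi1 (-0.74, SE 0.11), an antagonist of Myc, were called lower. Beside 10.0% higher and 8.23% lower among all tested genes, these calls are not read as a change of the list. At 7 days Mxd4, another antagonist, was higher than in sham hemispheres (0.63, SE 0.16) and Mycn was lower (-1.37, SE 0.33). The background at 7 days was 3.27% higher and 9.95% lower. Neither Mxd4 nor Mycn was called against the contralateral hemisphere at 7 days (0.19, SE 0.16, for Mxd4 and -0.59, SE 0.33, for Mycn). Odc1, Mxi1 and the genes not named for an extreme value were chosen after their values were seen. A part of Myc in the rise of the ribosome biogenesis genes was not tested.

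Markers of other cell types moved at the same time. All 6 tested neutrophil and monocyte markers were higher 24 h post-stroke than in sham hemispheres, and the sum of the 7 listed was 3006 to 5741 normalised counts against 311 to 1131 in sham ipsilateral hemispheres. Against the contralateral hemisphere at 24 h, 3 of the 6 were higher, where the sums were 521 to 943. At 7 days, 1 of the 6 was called, with sums of 756 to 4124 against 291 to 1652. No marker of this list was at 0 throughout a group. Neuronal markers were lower in 5 of 8 at 24 h and in 8 of 8 at 7 days, with sums of 2092 to 2740 against 5168 to 5503 and of 859 to 1365 against 5068 to 7640. Astrocyte markers were lower in 3 of 6 at 24 h, with sums of 9978 to 15398 against 14706 to 22424, and oligodendrocyte markers in 2 of 6, with sums of 20666 to 50014 against 35392 to 67948. Against the contralateral hemisphere at 24 h, neuronal markers were lower in 3 of 8, astrocyte markers in 2 of 6 and oligodendrocyte markers in 0 of 6. Microglia and macrophage markers were higher in 2 of 6 at 24 h, and their sums overlapped (2349 to 3605 against 1962 to 4064). Endothelial markers went both ways at 24 h, with 1 of 10 higher, 2 lower and a median log2 fold change of -0.03, although their sum was 253838 to 281276 against 285859 to 332365. Pericyte and mural markers were lower in 2 of 8, with sums of 77836 to 137784 against 138846 to 163231. Of the choroid plexus and fibroblast markers, 0 of 5 each were called at 24 h, and 3 and 2 of 5 were lower at 7 days. The choroid plexus sums varied widely, from 5095 to 74083 in the sham ipsilateral libraries of 24 h. The part of these shifts in the rise of the ribosome biogenesis genes was not tested.

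Proliferation markers were called mainly at 7 days. At 24 h, 1 of the 6 tested was higher (median log2 fold change 0.61), with sums of the 8 listed of 96 to 234 normalised counts against 66 to 100. Against the contralateral hemisphere at 24 h, 2 of the 6 were higher (median 1.01), where the sums were 58 to 75. At 7 days, all 6 were higher than in sham hemispheres (median 2.31), with sums of 330 to 440 against 68 to 74. Of the 8, Aurkb was at 0 in all 3 contralateral libraries 7 days post-stroke. The ribosome biogenesis genes had 33 of 72 higher at 24 h and 0 of 72 at 7 days in the same libraries. How the proliferation markers and these genes relate was not tested.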

How the data were processed

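RNA from microvessels of 24 libraries was sequenced after poly(A) selection with a stranded kit. Per the labels and the study's methods, the authors trimmed the reads, aligned them to mm10 (GRCm38) with STAR, discarded reads that matched several genes, counted with featureCounts and normalised with DESeq2. The submitters' processing notes name STAR 2.5.2b, featureCounts 1.5.1 and DESeq2 1.6.2, while the methods text names other versions of STAR and DESeq2. The deposited values are a score, namely read counts scaled with DESeq2 size factors and rounded by the authors, so that they are no longer whole reads. Size factors of 0.805 to 1.24 were estimated from the gaps between low values, and no count model was run.

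Groups came from the labels. The 15982 genes with a mean above 5 were fitted as log2(value + 1) with limma 3.58.1 in R 4.3.3, using its trend option and a single model of the 8 groups. Adjustment was by Benjamini-Hochberg across the 15982 genes. Genes were called at an adjusted p under 0.05 and a log2 fold change beyond 0.585, the limits of the study's methods. Adding 1 understates the change of low genes. P-values measure the spread between pools of 3 hemispheres. On simulated libraries for stroke against sham at 24 h (15838 genes), limma recovered 70% of 100 genes with a log2 change of 1 and 91.9% of 99 genes with one of 2, with 2 unchanged genes called. Descriptions used Python 3.11.15 with numpy 2.4.6, pandas 2.3.3 and matplotlib 3.10.9. Exon overlaps and lengths came from GENCODE M21 (99.9% of genes), promoters from RefSeq by symbol. Stretches that reached an annotated exon were shortened to at most 11 bases on each side of the motif, and the others show at most 30. Each stretch was cut at the end of the 250 upstream bases, so that those of Utp18 and Heatr1 show fewer bases after the motif.

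The genes, their roles, the lists outside the pathway, the markers and the motifs were chosen with earlier results of these data known. By rule, the text could name any called member, the largest increase and decrease of each role at each time, and related pairs. It could also name Fbl, Nop56, Nop58, Dkc1, Heatr1, Tcof1, Nob1, Xpo1, Ran, Sbds, Eif6 and Drosha, and of the outside lists the extremes and Myc. Other names are marked. Not all of these are given. Left out as pairs were Csnk2a1 and Csnk2a2, Gnl2 and Gnl3, Rpp25 and Rpp25l, Xrn1 and Xrn2, and Rexo1 and Rexo5. Most extremes at 7 days were also left out, such as Nxf2 (1.94-fold, not called). Same-numbered libraries of the sham hemispheres deviated together (correlations 0.145 to 0.467, all above 0.1). The alternatives tried were a pseudocount of 0.5, no filter, a minimum mean of 20, median centring, the replicate block, only the compared groups, no fold limit, no trend, a correction for gene length by a spline with 5 degrees of freedom, and each library left out.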

Additional observations from a re-analysis of the deposited data

Results flagged for a closer look

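The stroke effect differed between the time points for 33 of the 72 ribosome biogenesis genes, by limma's test of the difference itself (stroke effect at 7 days minus stroke effect at 24 h, in log2 units). All 33 differences were negative, against 5.68% called negative and 2.43% called positive among all tested genes. Each difference holds the 24 h effect that was already seen when the pathway was taken up, so that the count is no independent test. In UTP-A they were -1.31 for Heatr1, -0.97 for Wdr75, -0.86 for Utp15, -0.80 for Utp4 and -0.60 for Wdr43. In UTP-B they were -1.16 for Pwp2, -0.99 for Tbl3, -0.88 for Wdr36 and -0.75 for Utp18. Among UTP-C and MPP10 genes they were -0.79 for Nol6, -0.66 for Rrp7a and -0.76 for Mphosph10. The snoRNP proteins had -1.81 for Fbl, -1.55 for Nop58, -1.06 for Nop56, -1.62 for Nhp2, -1.12 for Gar1 and -1.0 for Dkc1. Other factors of the small subunit had -1.13 for Nat10, -1.04 for Rcl1, -0.93 for Ak6, -0.88 for Nob1 and -0.64 for Utp14a. Subunits of RNase MRP and P had -1.96 for Rpp38, -1.83 for Pop1, -1.33 for Rpp40 and -0.78 for Pop7, and the nuclease Rexo2 had -0.67. Factors of the large subunit had -1.16 for Gnl3, -0.75 for Eif6, -0.72 for Spata5 and -0.70 for Gtpbp4, and Ran had -1.17. Utp15, Wdr43 and Nol6 were flagged here although their increase at 24 h did not pass the limit. Groups of 3 libraries were too small to look for single outlying values.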

How the results depend on the processing

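For stroke against sham ipsilateral hemispheres at 24 h, 33 genes were higher (10.0% of all tested genes). The count was 27 after median centring, 51 without the fold limit (17.4% of all tested genes) and 28 to 39 with each library left out. For the other counts, the shares of all genes in the main fit are those given above. Their shares under the alternatives are not given here, so that these counts are compared only with the main count. The 1 lower gene (Fbll1) became 0 with the replicate block, 3 without the fold limit and 0 to 1 with a library left out. At 7 days, 3 were lower, 1 with only the compared groups and 1 to 3 with a library left out (1 without the third sham library). Ipsilateral against contralateral at 24 h, 28 were higher (22 after median centring, 45 without the limit, 22 to 35 with a library left out), and 0 were lower (1 after median centring, 1 after length correction, 2 without the limit, 0 to 1 with a library left out). At 7 days, 2 were lower (1 at a minimum mean of 20, where Rpp25 was not tested, 0 with only the compared groups, 2 in every fit without a library). From 24 h to 7 days post-stroke, 26 were lower (21 after median centring, 42 without the limit, 23 to 31 with a library left out). The interaction gave 33 (28 after median centring, 27 to 35 with a library left out). No direction reversed. The causes of these changes were not tested. Replicate numbers of the stroke hemispheres did not pair the libraries by the criterion used (correlations 0.066 to 0.360 at 24 h and 0.059 to 0.309 at 7 days, each best with its own number); stroke and sham libraries of the same number had -0.25 to -0.11 at 24 h. With the replicate block, the counts were 33 higher and 0 lower against sham at 24 h and 29 against contralateral, and it moved none of the other counts of called genes given here by more than 1.5 times. Between sham hemispheres, where the numbers paired the libraries, 0 of the 72 genes were called with the replicate block at 24 h and at 7 days, with 1 and 2 at an unadjusted limma p under 0.05, and among all genes 1 was called at 24 h and 0 at 7 days. Genes with few counts (Fbll1, Rpp25, Nxf2) are limited by depth.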
